A study of Mus musculus with 10 samples.

Results

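The 10 genes described here encode receptors that bind dying cells or modified lipids and the soluble proteins that bridge a dying cell to such receptors. They are the TAM receptor tyrosine kinases Axl and Mertk, their ligands Gas6 and Pros1, the bridging protein Mfge8, the engulfment receptor Megf10, and the scavenger receptors Cd36, Msr1, Scarb1 and Stab1. They were chosen by symbol, and 10 of 10 were found among 24421 distinct symbols, each on a single line of the count files. All 10 passed the filter on low counts that left 18727 genes to test. RNA seq counts came from cortical cells labelled microglia of 9-month-old mice in 3 groups, which were WT with 3 libraries, APP/PS1 without N-AS with 4 and N-AS-injected APP/PS1 with 3. APP/PS1 mice carry transgenes for human APP with the Swedish mutation and for mutant presenilin-1, so both APP/PS1 groups share these alleles. N-AS, N-acetyl sphingosine, was given subcutaneously at 30 mg/kg each day for 8 weeks from 7 months of age, and the study describes vehicle injections for its comparison group of APP/PS1 mice, which the sample labels do not mention. Each library pooled 2 mice, cells were taken from papain-digested cortex by a density gradient without sorting, and the promoter that drives the transgenes was not given in the sources used here.

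Microglia clear apoptotic cells, synapses and amyloid by recognising phosphatidylserine, oxidised lipids and other ligands on their surface. Gas6 and protein S (Pros1) bind exposed phosphatidylserine at their Gla domains and activate Axl and Mertk, Gas6 binding both receptors and protein S mainly Mertk and Tyro3. Mfge8 links phosphatidylserine to αv integrins, Megf10 binds C1q on dying cells and is best known from astrocytes, and the scavenger receptors take up modified lipoproteins, fibrillar proteins and cell remnants.

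Total counts ran from 8805804 to 19432075 per library. The labelled cell type was checked first with marker genes. None of the 14 microglial markers was at 0 in any library, and their summed level in CPM (read counts scaled to the library total by the TMM method) was 667.3 to 1014 for WT, 2006 to 2612 for APP/PS1 and 1285 to 1626 for the N-AS libraries. Markers of other brain cells were abundant too, with 2248 to 3942 CPM for 8 astrocyte markers, 1980 to 7156 for 10 oligodendrocyte markers, 1479 to 4928 for 8 neuronal markers and 517.4 to 1410 for 8 endothelial markers across the libraries, and none of these was at 0. A gene was called where its adjusted p was under 0.05 (edgeR quasi-likelihood test, Benjamini-Hochberg adjustment over all genes tested). In APP/PS1 against WT, 10 of the 14 microglial markers were called higher (median log2 fold change 1.39), as were 2.67% of all genes, and 3 of the 10 oligodendrocyte markers lower (median -1.34), as were 0.796% of all genes. All 14 microglial markers had lower estimates with N-AS than in APP/PS1 without N-AS (median -0.53), none of them called. In such bulk samples, fewer cells of a type and less RNA per cell cannot be told apart. The libraries also went against the study's statement that only male mice were used, with 33 to 37 Xist reads in WT and 29 in N-AS replicate 3 but at least 5253 in each APP/PS1 library, and 7024 and 8848 in N-AS replicates 1 and 2. Sex-linked transcripts and genotype therefore cannot be told apart in APP/PS1 against WT. N-AS replicate 3, alone among the APP/PS1 libraries, had WT-like Xist, and for each member the difference between N-AS and APP/PS1 is also given with that library left out. The sex-linked transcript Ddx3y had 590 to 1431 reads in WT and 993 in N-AS replicate 3. It had 203 and 324 in APP/PS1 replicates 1 and 2, 207 and 359 in N-AS replicates 1 and 2, and 7 and 10 in APP/PS1 replicates 3 and 4. Leaving out N-AS replicate 3 therefore does not make the groups alike in sex-linked transcripts. WT replicate 3 stood apart from WT replicates 1 and 2 in its markers, with 4928 against 1479 and 1737 CPM for neurons, 2472 against 7024 and 7156 for oligodendrocytes and 517.4 against 1164 and 1410 for endothelial cells, and it had the lowest Axl, Gas6 and Pros1.

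**Figure D1:**
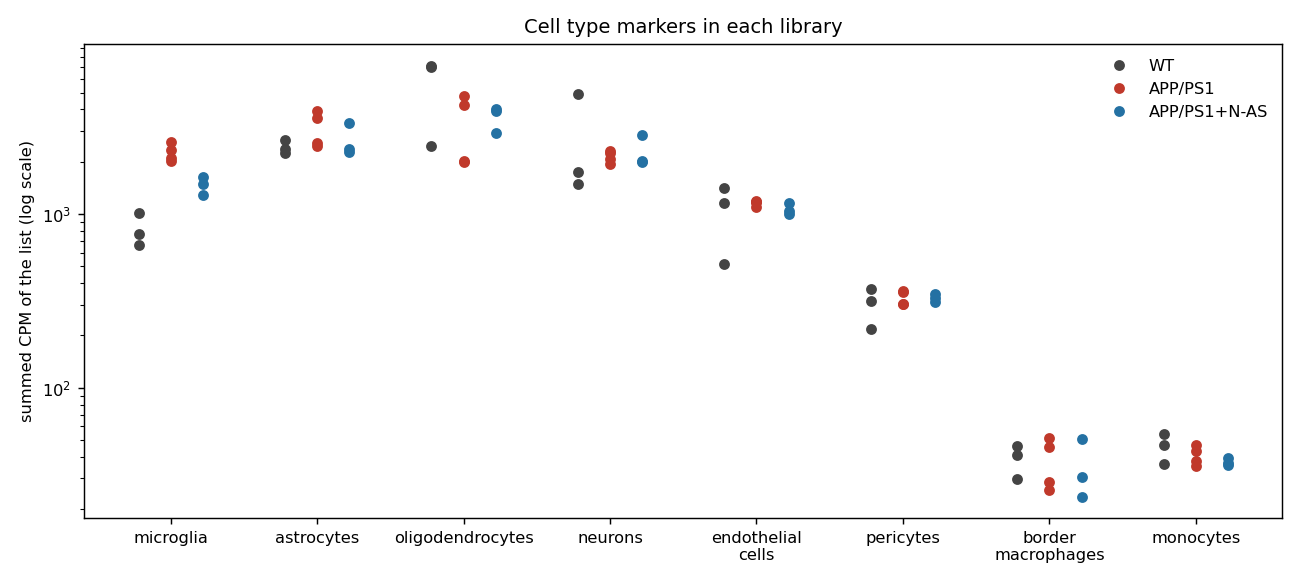
Summed CPM (log scale) of marker genes of 8 cell types in each library, with 1 point per library and colours for WT, APP/PS1 and APP/PS1 with N-AS. The microglial sums did not overlap between groups (667.3 to 1014, 2006 to 2612 and 1285 to 1626 CPM), whereas the other sums overlapped.

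Axl and Pros1 were the members called higher in the APP/PS1 libraries, and their promoter sequences are shown because this receptor and this ligand moved in the same direction. The RefSeq table of promoters (build GRCm38.p6), with 250 bases before and 50 after each start, held 7 of the 10 members. Both windows are written 5′ to 3′ on the strand of the gene, and capitals mark GC boxes, the motif GGGCGG or its reverse complement CCGCCC.
Axl promoter, chr7:25788684-25788983, minus strand: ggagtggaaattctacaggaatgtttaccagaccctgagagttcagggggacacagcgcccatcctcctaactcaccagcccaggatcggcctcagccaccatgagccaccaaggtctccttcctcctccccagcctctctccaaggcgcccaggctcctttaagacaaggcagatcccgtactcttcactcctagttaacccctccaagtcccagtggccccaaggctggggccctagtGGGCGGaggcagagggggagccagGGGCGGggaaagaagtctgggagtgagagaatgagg
Pros1 promoter, chr16:62854057-62854356, plus strand: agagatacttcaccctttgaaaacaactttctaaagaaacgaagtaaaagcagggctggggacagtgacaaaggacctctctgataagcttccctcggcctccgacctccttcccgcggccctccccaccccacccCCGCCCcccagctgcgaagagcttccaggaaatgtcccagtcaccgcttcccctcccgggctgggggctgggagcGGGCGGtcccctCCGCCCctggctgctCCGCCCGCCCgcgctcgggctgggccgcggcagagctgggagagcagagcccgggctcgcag
The Axl window held 2 GC boxes and 6 CpG dinucleotides at 60.3% G+C. The Pros1 window held 5 GC boxes, 2 of them overlapping, and 21 CpG dinucleotides at 66.7% G+C, while the median over all 32851 promoters was 7 CpG and 52.7% G+C. GGGCGG, read on both strands, was found in 35.66% of all promoters and in 6 of the 7 member promoters, all except that of Stab1. AGGAAG, a longer form of the GGAA core that ETS factors bind, was found in 35.35% of all promoters and in 3 of 7 members, among them Axl but not Pros1. Both printed windows held the shorter GGAA. The E-box CACGTG, the AP-1 motif TGANTCA, the cyclic AMP response motif TGACGT and the TATA motif TATAA, with shares of 7.15%, 7.81%, 7.51% and 24.9% of all promoters, were in none of the 7 windows. These motifs were chosen with the sequences in view, and a match is a description of letters only.

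Across the comparisons, APP/PS1 against WT gave 2 of 10 members called higher (2.67% of all genes tested) and 1 called lower (0.796%) by edgeR. The groups did not overlap for 4 members higher (8.15% of all genes) and 1 lower (6.73%), and 5 passed an unadjusted p under 0.05 (17.2% of all genes in either direction). The median log2 fold change was 0.22 over the members and -0.074 over all genes. With N-AS against APP/PS1 without N-AS, 0 of 10 members were called by edgeR (0% of all genes) and 0 by DESeq2 (73 of all genes). At an unadjusted p under 0.05, Megf10 was higher (4.78% of all genes) and Axl, Pros1 and Gas6 were lower (4.05%). For these 4 members the groups also did not overlap, against 6.26% of all genes higher and 6.46% lower, and the median was -0.17 over the members and -0.0089 over all genes. With N-AS against WT, 0 of 10 members were called by edgeR (0.187% of all genes in either direction) and 1, Mertk, by DESeq2 (180 of all genes). Axl, Mertk and Stab1 were higher at an unadjusted p under 0.05 (3.64% of all genes), and the groups were apart for Mertk and Stab1 (4.9%). The comparisons with APP/PS1 share its 4 libraries, so opposite signs in them, as seen for Axl, Pros1 and Megf10, are not independent of each other.

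**Figure D2:**
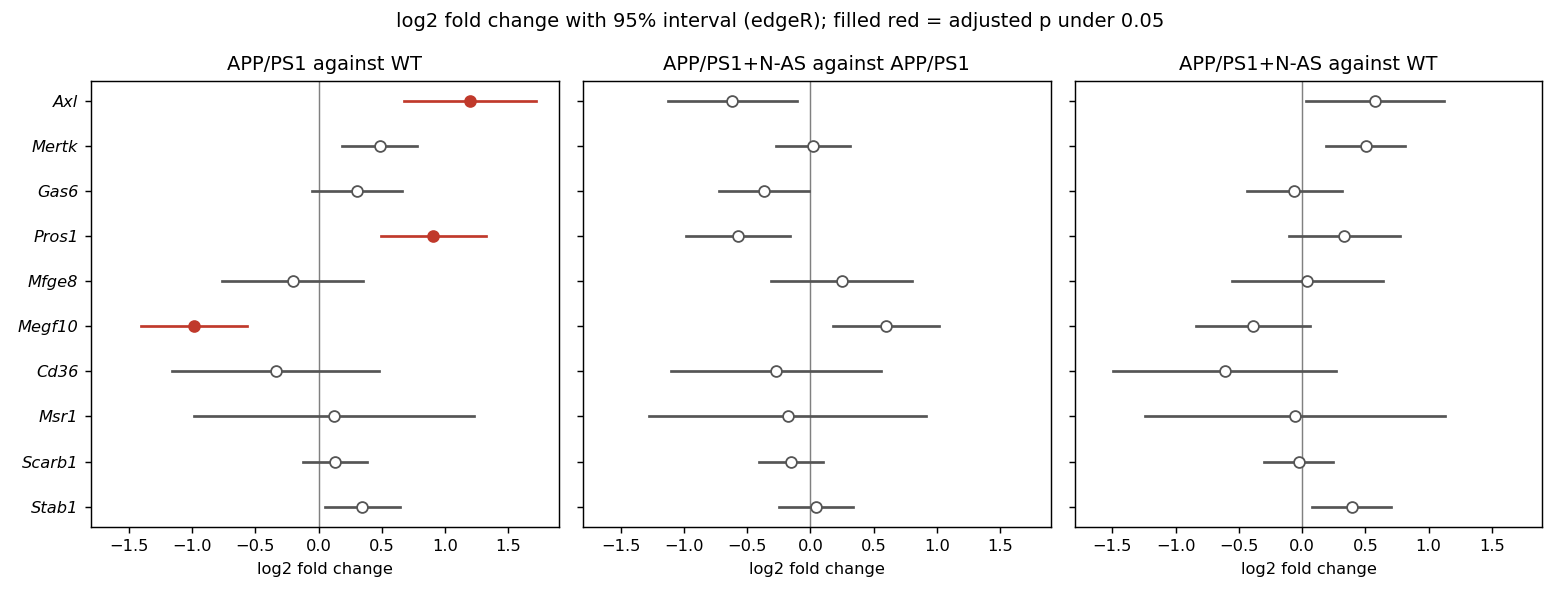
log2 fold change of each gene (point) with its 95% interval (line) in the 3 comparisons from edgeR, with filled red points for an adjusted p under 0.05. Axl (1.19), Pros1 (0.91) and Megf10 (-0.99) were past the threshold in APP/PS1 against WT, and no gene of the 10 was in the other comparisons.

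In the WT libraries, the levels per exon length ran from 27.2 CPM per kb for Mertk to 0.451 for Msr1. Mertk and Gas6 (25.5 CPM per kb) led the order and their ranges overlapped, followed by Mfge8 (16.7), Axl (12.7), Pros1 (8.69), Stab1 (5.86), Megf10 (4.69), Scarb1 (3.05) and Cd36 (1.23). Only the steps from Pros1 to Stab1, from Megf10 to Scarb1 and from Scarb1 to Cd36 had ranges that did not overlap between neighbours in this order. In APP/PS1, Axl stood after Gas6 at 28.9 CPM per kb, with a range that overlapped that of Gas6 (31.4) and lay above that of Pros1 (16.3). Megf10 (2.36 CPM per kb) stood below Scarb1 (3.33) in APP/PS1 and their ranges were apart. In the N-AS libraries, Megf10 (3.59 CPM per kb) stood above Scarb1 (2.99) with overlapping ranges, and Axl (18.9) stood between Gas6 (24.4) and Mfge8 (17.2). Mertk led in all 3 groups and Msr1 was last.

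**Figure D3:**
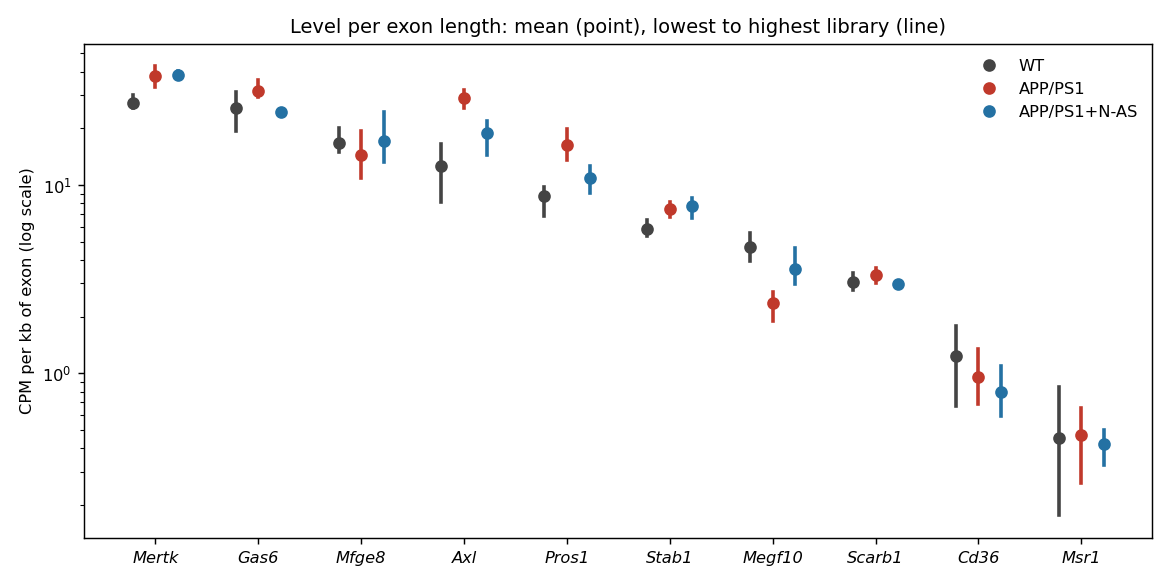
Level of each gene per kb of annotated exon (CPM per kb, log scale), with the group mean as a point and a line from the lowest to the highest library. Mertk and Gas6 were highest, Cd36 and Msr1 lowest, and Axl stood below Mfge8 in WT (12.7 and 16.7 CPM per kb) and above it in APP/PS1 (28.9 and 14.5).

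Axl, at chromosome 7 from 25757273 to 25788705 on the minus strand (GRCm38, GENCODE M21), encodes a TAM receptor that is low in resting microglia and raised in activated ones. Its level was 67.4, 82.7 and 40.8 CPM in the WT libraries, 136, 128, 157 and 161 in APP/PS1 and 111, 101 and 72.9 with N-AS. Each APP/PS1 library lay above each WT library, and the N-AS libraries lay between, below all of APP/PS1 and partly within the range of WT. Axl was 2.29-fold higher in APP/PS1 than in WT (log2 fold change 1.19, SE 0.24; adjusted p = 0.0210, edgeR quasi-likelihood test with Benjamini-Hochberg adjustment over all genes). The change was not past the threshold without WT replicate 1 (1.24, adjusted p = 0.0663 by edgeR), APP/PS1 replicate 3 (1.17, adjusted p = 0.0656) or APP/PS1 replicate 4 (1.15, adjusted p = 0.0664). Without WT replicate 3 it was 0.96 (adjusted p = 0.0252 by edgeR). APP/PS1 minus WT was 0.82 among libraries 1 to 6 in the labels' numbering and 1.96 among 7 to 10. For all members, the set of libraries 7 to 10 held WT replicate 3 as its only WT library and N-AS replicate 3 as its only N-AS library. Differences from WT within that set therefore rest on the WT library that stood apart in its markers. With N-AS, Axl was 0.652 of its level in APP/PS1 without N-AS (log2 fold change -0.62, SE 0.23; adjusted p = 0.517 by edgeR), which did not pass the adjusted threshold. Without N-AS replicate 3, whose Axl was the lowest of the treated group, the log2 fold change was -0.45. Against WT, the N-AS libraries were 1.49-fold higher for Axl (log2 fold change 0.58, SE 0.25; adjusted p = 0.699 by edgeR) and the groups overlapped. This value was 0.76 without N-AS replicate 3 and 0.34 without WT replicate 3.

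Mertk, at chromosome 2 from 128698956 to 128802894 on the plus strand, encodes the TAM receptor that resident microglia use to engulf apoptotic cells. It was at 111, 131 and 112 CPM in WT, 144, 162, 185 and 169 in APP/PS1 and 159, 176 and 166 with N-AS. Both APP/PS1 groups lay wholly above WT, and they overlapped each other. Mertk was 1.40-fold higher in APP/PS1 than in WT (log2 fold change 0.48, SE 0.13; adjusted p = 0.0810 by edgeR), short of the threshold, which it passed with DESeq2 (adjusted p = 0.00361). The N-AS libraries differed from APP/PS1 without N-AS by 0.018 on the log2 scale, with a 95% interval from -0.27 to 0.31, and by 0.032 without N-AS replicate 3. Against WT, the N-AS libraries were higher for Mertk (log2 fold change 0.50, SE 0.14; adjusted p = 0.359 by edgeR and 0.0292 by DESeq2). Within library numbers 1 to 6 and 7 to 10, the difference between N-AS and WT was 0.47 and 0.57, the latter from a single library of each group.

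The balance of the TAM receptors among the members is described here as the ratio of Axl to Mertk per exon length in each library. It was 0.522, 0.545 and 0.315 in WT, 0.814, 0.684, 0.730 and 0.823 in APP/PS1 and 0.598, 0.496 and 0.378 with N-AS. All 4 APP/PS1 ratios lay above all others, and the N-AS and WT ratios overlapped. This ratio rests on the same Axl and Mertk counts as above and adds no test. It leaves out Tyro3, a TAM receptor that is not among the members. Tyro3 was at 91.8, 116 and 115 CPM in WT, 83.7, 78.5, 44.9 and 65.8 in APP/PS1 and 101, 90.3 and 93.8 with N-AS. Its log2 fold change was -0.66 in APP/PS1 against WT (SE 0.20; adjusted p = 0.103 by edgeR). With N-AS against APP/PS1 without N-AS it was 0.48 (SE 0.20; adjusted p = 0.531 by edgeR).

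Pros1, at chromosome 16 from 62854307 to 62929346 on the plus strand, encodes protein S, an anticoagulant that also serves as a TAM ligand. Its level was 38.8, 39.8 and 28.0 CPM in WT, 55.2, 58.2, 81.3 and 71.2 in APP/PS1 and 37.0, 51.4 and 45.5 with N-AS. The APP/PS1 libraries were higher than all others, while the N-AS and WT ranges overlapped. Pros1 was 1.88-fold higher in APP/PS1 than in WT (log2 fold change 0.91, SE 0.19; adjusted p = 0.0254 by edgeR with Benjamini-Hochberg adjustment). This call was lost without WT replicate 1 (0.97, adjusted p = 0.0631 by edgeR), WT replicate 2 (1.01, adjusted p = 0.0522), APP/PS1 replicate 3 (0.81, adjusted p = 0.0721) or APP/PS1 replicate 4 (0.89, adjusted p = 0.0748). APP/PS1 exceeded WT by 0.53 among libraries 1 to 6 and by 1.44 among 7 to 10, where WT replicate 3 was the only WT library. In a fit of library numbers 1 to 6 alone the log2 fold change of Pros1 was 0.50 and the call was also lost (adjusted p = 0.129 by edgeR). With N-AS, Pros1 was 0.672 of its level in APP/PS1 without N-AS (log2 fold change -0.57, SE 0.19; adjusted p = 0.497 by edgeR). The value without N-AS replicate 3 was -0.58. The APP/PS1 difference from WT was 0.77 without WT replicate 3 (adjusted p = 0.0460 by edgeR). Against WT, Pros1 with N-AS differed by 0.33 with an SE of 0.20 (adjusted p = 0.803 by edgeR).

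Gas6, at chromosome 8 from 13465374 to 13494490 on the minus strand, encodes the TAM ligand with the highest affinity for Axl. It was at 66.6, 79.2 and 49.1 CPM in WT, 78.3, 75.0, 74.9 and 92.2 in APP/PS1 and 62.5, 64.5 and 59.6 with N-AS. The N-AS libraries lay close together and below all APP/PS1 libraries, and WT replicate 2 lay within the APP/PS1 range. The log2 fold change of Gas6 was 0.30 in APP/PS1 against WT (SE 0.16; adjusted p = 0.377 by edgeR), -0.37 with N-AS against APP/PS1 without N-AS (SE 0.16; adjusted p = 0.556) and -0.061 with N-AS against WT (adjusted p = 0.984). None passed the threshold, and the difference with N-AS against APP/PS1 without N-AS was -0.33 without N-AS replicate 3. Without WT replicate 3 the Gas6 difference between APP/PS1 and WT was 0.14. Gas6 shares 34 exon bases with Tmem255b on the opposite strand, and the sources do not say whether counting used strand. The ratio of Pros1 to Gas6 per exon length was 0.363, 0.313 and 0.355 in WT, 0.440, 0.483, 0.677 and 0.482 in APP/PS1 and 0.370, 0.497 and 0.476 with N-AS. In all groups Gas6 was the more abundant ligand transcript per length. The ratio was lower in each WT library than in any of the 7 libraries with the transgenes, but narrowly, at 0.363 in WT replicate 1 and 0.370 in N-AS replicate 1. It rests on the same Pros1 and Gas6 counts as above and adds no test.

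**Figure D4:**
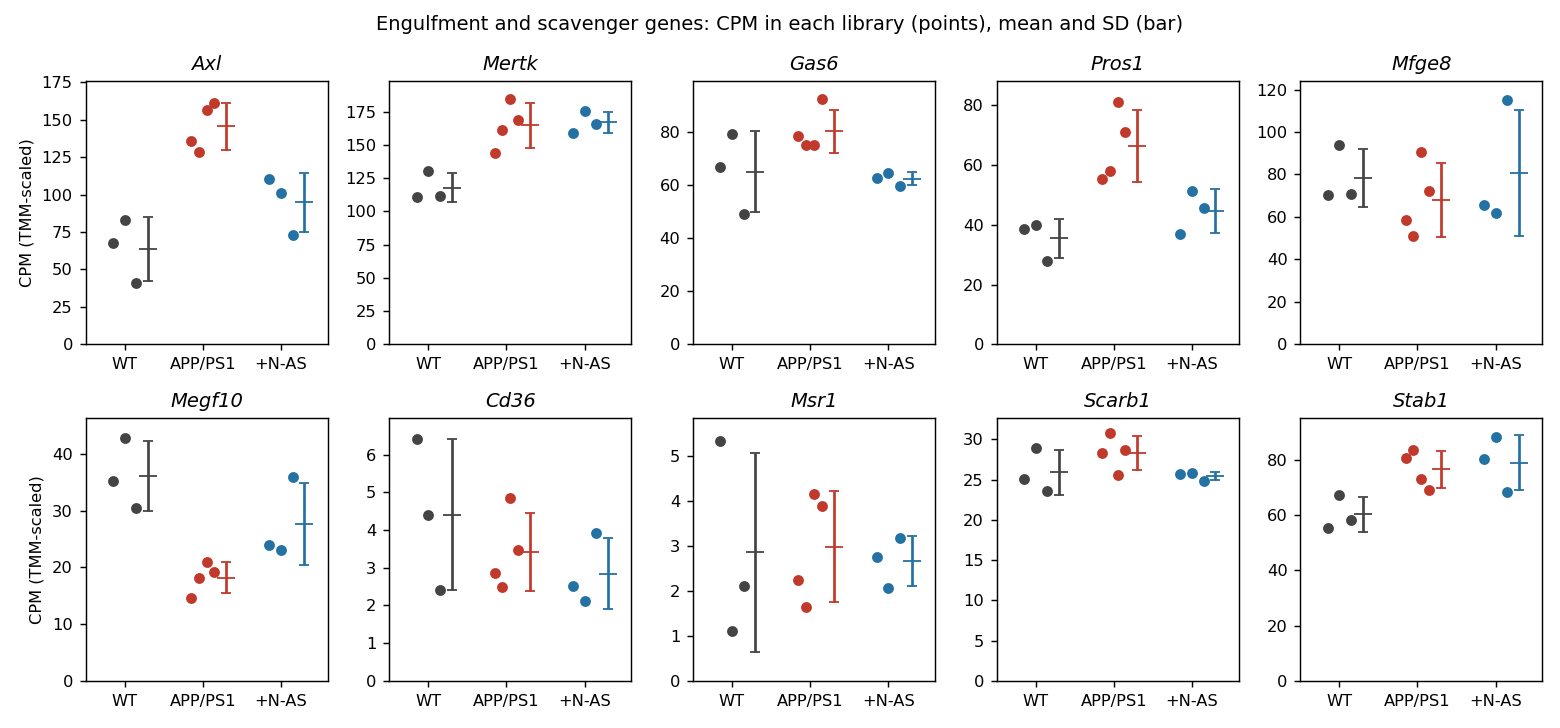
CPM of the 10 genes in each library (points) with the group mean and SD (bars), each panel starting at 0. Axl, Mertk, Pros1 and Stab1 lay higher and Megf10 lower in all 4 APP/PS1 libraries than in all 3 WT libraries.

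Mfge8, at chromosome 7 from 79133768 to 79149060 on the minus strand, encodes a secreted protein that binds phosphatidylserine and αv integrins. It was at 70.1, 94.1 and 70.9 CPM in WT, 58.3, 51.1, 90.6 and 72.0 in APP/PS1 and 65.6, 61.9 and 115 with N-AS. The 3 groups overlapped, and the highest value was that of N-AS replicate 3. The log2 fold changes of Mfge8 were -0.20 in APP/PS1 against WT (95% interval -0.76 to 0.35), 0.25 with N-AS against APP/PS1 without N-AS (-0.31 to 0.80) and 0.042 with N-AS against WT (-0.56 to 0.64). APP/PS1 minus WT was -0.57 among libraries 1 to 6 and 0.19 among 7 to 10, with WT replicate 3 as the only WT library of the latter. Without N-AS replicate 3 the difference between N-AS and APP/PS1 without N-AS was -0.085.

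Megf10, at chromosome 18 from 57133090 to 57297467 on the plus strand, was the member that fell in APP/PS1. It encodes a receptor through which astrocytes engulf synapses and apoptotic cells. Its level was 35.2, 42.8 and 30.5 CPM in WT, 14.6, 18.2, 20.9 and 19.2 in APP/PS1 and 24.0, 23.1 and 35.9 with N-AS. All APP/PS1 libraries lay below all WT and all N-AS libraries, and N-AS replicate 3 lay within the WT range. Megf10 in APP/PS1 was 0.505 of its WT level (log2 fold change -0.99, SE 0.19; adjusted p = 0.0189 by edgeR with Benjamini-Hochberg adjustment). The call was lost without WT replicate 1 (-1.01, adjusted p = 0.0548 by edgeR), WT replicate 2 (-0.84, adjusted p = 0.0733), APP/PS1 replicate 2 (-0.98, adjusted p = 0.0530) or APP/PS1 replicate 4 (-1.0005, adjusted p = 0.0603). APP/PS1 minus WT was -1.25 among libraries 1 to 6 and -0.60 among 7 to 10, with WT replicate 3 as the only WT library of the latter. With N-AS, Megf10 was 1.51-fold the level of APP/PS1 without N-AS (log2 fold change 0.60, SE 0.19; adjusted p = 0.497 by edgeR), and 0.38 on the log2 scale without N-AS replicate 3. Against WT the N-AS libraries were lower by a log2 fold change of -0.39 (SE 0.20; adjusted p = 0.770 by edgeR), with -0.59 without N-AS replicate 3 and differences of -0.72 and 0.23 within library numbers 1 to 6 and 7 to 10. The last value sets N-AS replicate 3 alone against WT replicate 3 alone. The 8 astrocyte markers summed to between 2248 and 2675 CPM in WT, between 2459 and 3942 in APP/PS1 and between 2284 and 3339 with N-AS. In APP/PS1 against WT, 5 of these 8 markers had lower estimates (median of the list -0.15) and 0 were called lower, while Gfap, named here after its values were seen, was called higher (log2 fold change 5.65, SE 0.55; adjusted p = 0.000545 by edgeR). The oligodendrocyte markers, with 2472 to 7156 CPM in WT and 1980 to 4777 in APP/PS1, had lower estimates in the same comparison, and the part of either list in the Megf10 difference was not tested.

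The scavenger receptor Stab1, at chromosome 14 from 31139013 to 31168641 on the minus strand, encodes stabilin-1, which macrophages use to clear modified lipoproteins and apoptotic cells. It was at 55.4, 67.3 and 58.2 CPM in WT, 80.9, 83.6, 73.1 and 69.1 in APP/PS1 and 80.5, 88.3 and 68.5 with N-AS. Both groups with the transgenes lay above WT and overlapped each other. The log2 fold change of Stab1 was 0.35 in APP/PS1 against WT (SE 0.13; adjusted p = 0.212 by edgeR), 0.39 with N-AS against WT (SE 0.14; adjusted p = 0.624) and 0.046 with N-AS against APP/PS1 without N-AS (95% interval -0.25 to 0.34). None passed the adjusted threshold, and the last value was 0.15 without N-AS replicate 3. Stab1 shares 112 exon bases with Nt5dc2 on the opposite strand, so reads there cannot be told apart if strand was not used.

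Scarb1, at chromosome 5 from 125277087 to 125341094 on the minus strand, encodes the receptor for high-density lipoprotein and varied least among the members. It ranged from 23.6 to 30.7 CPM over the 10 libraries, a 1.30-fold range, with means of 25.9 ± 2.77 (SD, n = 3) in WT, 28.3 ± 2.13 (n = 4) in APP/PS1 and 25.4 ± 0.524 (n = 3) with N-AS. The log2 fold changes of Scarb1 were 0.13 in APP/PS1 against WT (95% interval -0.13 to 0.38), -0.15 with N-AS against APP/PS1 without N-AS (-0.41 to 0.10) and -0.026 with N-AS against WT (-0.30 to 0.25), so changes of 2-fold lay outside all 3 intervals. Without N-AS replicate 3 the difference between N-AS and APP/PS1 was -0.13.

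Cd36, at chromosome 5 from 17781690 to 17888801, and Msr1, at chromosome 8 from 39581685 to 39642673, both on the minus strand, encode receptors for oxidised lipids and fibrillar amyloid and were the scarcest members. Cd36 had 30 to 73 reads per library, at 6.42, 4.40 and 2.41 CPM in WT, 2.85, 2.48, 4.85 and 3.48 in APP/PS1 and 2.50, 2.12 and 3.92 with N-AS. Msr1 had 18 to 82 reads per library, at 5.35, 1.11 and 2.12 CPM in WT, 2.24, 1.65, 4.17 and 3.90 in APP/PS1 and 2.77, 2.07 and 3.18 with N-AS. Both overlapped in all groups, and WT replicate 1 was the highest library for each. That library had the lowest total count (8805804) and yet the fewest genes at 0 reads (566, against 837 to 3985 in the others). The part of this in its Cd36 and Msr1 levels was not tested. The 95% intervals of the log2 fold change in APP/PS1 against WT were -1.16 to 0.48 for Cd36 and -0.98 to 1.23 for Msr1, so a 2-fold decrease of Cd36 and a 2-fold increase of Msr1 lay within the intervals at this depth. For Cd36, APP/PS1 minus WT was -0.97 among libraries 1 to 6 and 0.74 among 7 to 10, where WT replicate 3 was the only WT library. Without WT replicate 1 the log2 fold change of Cd36 was 0.015 in place of -0.34, and without WT replicate 3 it was -0.63. With N-AS against APP/PS1 without N-AS, the log2 fold change was -0.27 for Cd36 and -0.18 for Msr1 (adjusted p = 0.872 and 0.944 by edgeR), and without N-AS replicate 3 it was -0.56 and -0.31. The 7 border macrophage markers, none of them at 0, summed to 46.4, 40.9 and 29.8 CPM in WT, 25.6, 28.5, 51.5 and 45.6 in APP/PS1 and 23.5, 30.8 and 50.7 with N-AS. Like Cd36, they were higher in APP/PS1 replicates 3 and 4 and in N-AS replicate 3 than in the other libraries of those groups, and their part in the Cd36 levels was not tested.

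Because microglial markers differed between the groups, each member was also set against their summed level in the same library. Mertk was at 14.9 ± 3.33 CPM per 100 microglial marker CPM in WT (SD, n = 3), 7.31 ± 0.286 in APP/PS1 (n = 4) and 11.5 ± 1.27 with N-AS (n = 3). Axl was at 8.28 ± 3.70 CPM per 100 marker CPM in WT, 6.46 ± 0.473 in APP/PS1 and 6.43 ± 0.877 with N-AS, with WT replicate 3 at 4.03 below all other libraries. Megf10 was at 4.61 ± 1.39 CPM per 100 marker CPM in WT, 0.806 ± 0.0597 in APP/PS1 and 1.94 ± 0.746 with N-AS, and the 3 ranges did not overlap. Pros1 was at 4.58 ± 1.61, 2.93 ± 0.188 and 3.06 ± 0.542. All 10 members had a lower mean ratio in APP/PS1 than in WT, but the mean marker sum itself was 817.5 CPM in WT and 2258 in APP/PS1. A gene whose CPM rises less than this sum tends to a lower ratio, so this count is no result about the members. The share of all genes with a lower ratio, or with ratios apart as for Megf10, was not determined. The ratio depends on the markers chosen, and how much of each difference in CPM goes with the amount of microglial RNA was not tested.

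**Figure D5:**
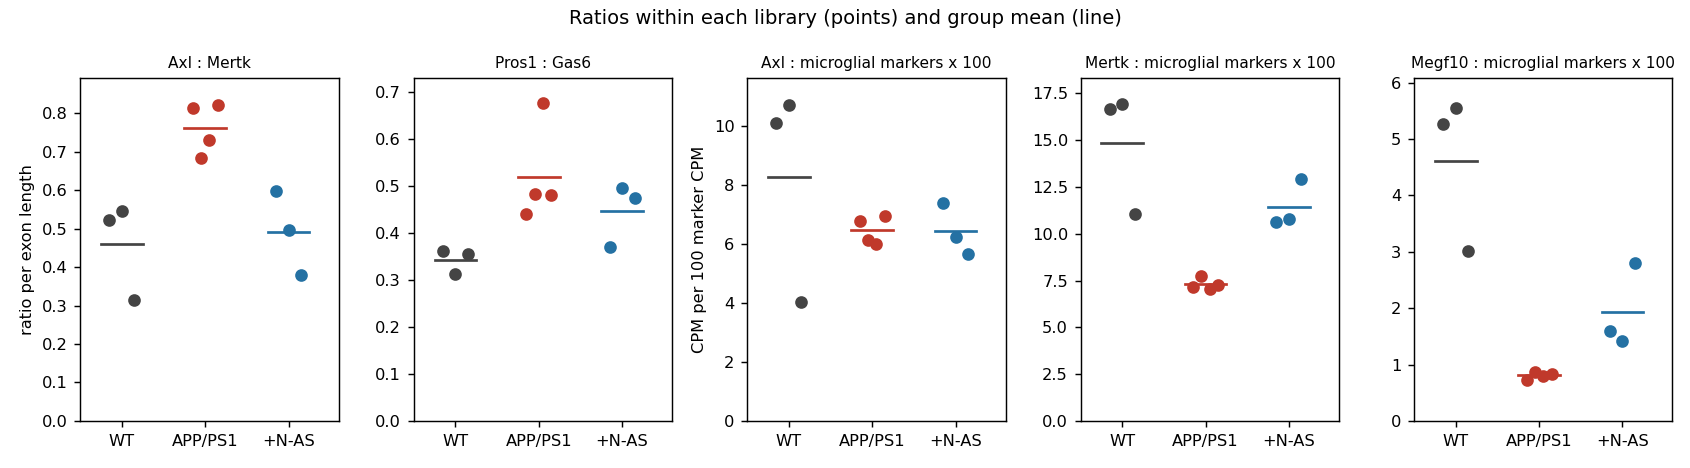
Ratios in each library (points) with the group mean (line), which are Axl to Mertk and Pros1 to Gas6 per exon length, and Axl, Mertk and Megf10 in CPM per 100 CPM of summed microglial markers. The Axl to Mertk ratio was highest in APP/PS1 (0.684 to 0.823), whereas Mertk and Megf10 per microglial marker were lowest there (7.07 to 7.72 and 0.727 to 0.869).

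Among 15 tested genes of other engulfment receptors and bridging proteins, 1 was called higher and 0 lower in APP/PS1 against WT, with a median log2 fold change of 0.025. Of all genes tested, 2.67% were called higher and 0.796% lower in this comparison. The called gene was Itgb5, the β5 integrin subunit to which Mfge8 binds, at 64.5, 78.8 and 82.1 CPM in WT and 192, 209, 264 and 260 in APP/PS1 (log2 fold change 1.62, SE 0.19; adjusted p = 0.00153 by edgeR). Itgb5 had the lowest p of this list also with N-AS against APP/PS1 without N-AS (-0.55, adjusted p = 0.509 by edgeR) and with N-AS against WT (1.07, adjusted p = 0.0839). Of 13 engulfment signalling genes, 2 were called higher and 0 lower in APP/PS1 (2.67% and 0.796% of all genes), with a median of 0.081. Vav1, a signalling protein of blood cells, had a log2 fold change of 1.34 (SE 0.16; adjusted p = 0.0014 by edgeR), and Dock2, an exchange factor for Rac in blood cells, of 1.57 (SE 0.23; adjusted p = 0.00461). Vav1 had the lowest p of this list with N-AS against APP/PS1 without N-AS (-0.53, adjusted p = 0.494 by edgeR) and against WT (0.81, adjusted p = 0.121).

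Of 14 tested genes of other scavenger receptors, 2 were called higher and 0 lower in APP/PS1 against WT (2.67% and 0.796% of all genes). The median log2 fold change of this list was -0.045. Cd68, a lysosomal glycoprotein of phagocytes, was at 8.56, 8.05 and 8.39 CPM in WT, 58.0, 71.4, 65.6 and 86.7 in APP/PS1 and 45.8, 55.0 and 24.3 with N-AS. The 3 groups of Cd68 did not overlap. Its log2 fold change was 3.08 in APP/PS1 against WT (SE 0.27; adjusted p = 0.000379 by edgeR), 2.33 with N-AS against WT (SE 0.27; adjusted p = 0.0160) and -0.75 with N-AS against APP/PS1 without N-AS (SE 0.24; adjusted p = 0.497). Cxcl16, a transmembrane chemokine that takes up oxidised lipoprotein, had a log2 fold change of 1.52 in APP/PS1 against WT (SE 0.25; adjusted p = 0.00857 by edgeR). With N-AS against APP/PS1 without N-AS, 0 genes of the 3 lists were called by edgeR, and at an unadjusted p under 0.05 1 was higher and 4 were lower, against 4.78% and 4.05% of all genes.

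The genes whose log2 CPM followed Axl most closely over the 10 libraries, among all genes tested, were Colgalt1 (Pearson r 0.984), Rps27rt (0.982) and Csf1 (0.982), the last a growth factor for microglia. Those nearest to Megf10 were Acad11 (r 0.965), Utp14b (0.959) and Hepacam (0.956), an adhesion molecule of astrocytes. Those nearest to Stab1 were Srgap2 (r 0.973), Fkbp5 (0.971) and Rbbp6 (0.959), and to Cd36 2610037D02Rik (0.938), Lpo (0.937) and Exoc3l4 (0.930), at the low counts of Cd36. Among the members, Axl and Pros1 had an r of 0.885, Axl and Gas6 of 0.813, and Axl and Megf10 of -0.731. These values describe 10 libraries that share the group differences given above. The most alike genes were picked as the highest of many. The member pairs named all hold Axl, and other pairs, such as Gas6 and Scarb1 (r 0.802), were left out.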

How the data were processed

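The authors depleted ribosomal RNA, made SMARTer stranded libraries, sequenced paired ends and aligned them with TopHat to mm10 (tools and build per the submitters' notes, versions not given). They deposited raw counts of reads per gene symbol, 1 file per library, with no normalization. Whether counting used strand is not given in the sources used here. The files list 24421 symbols, of which 43 stood on several of 103 lines and were summed. edgeR 4.0.16 in R 4.3.3 filtered genes (filterByExpr), scaled libraries (TMM) and tested 18727 genes in a single quasi-likelihood model of 3 groups. P-values were adjusted by Benjamini-Hochberg over all genes, with a threshold of 0.05. CPM used TMM-scaled totals, log2 CPM a prior count of 2, and CPM per kb the merged exons of GENCODE M21. The common dispersion was 0.0752. In simulated counts, edgeR recovered 28.2% of 103 genes changed 2-fold and 99% of 97 changed 4-fold for APP/PS1 against WT, with 3 other calls among 18437 tested. The simulation gave every gene the same common dispersion and no differences between sets of libraries, so these shares are not the power in the real data.

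All 10 members are named, and in each list of other pathway genes up to 3 called genes in each direction, or else the gene with the lowest p. Tyro3 was named in addition, after its values were seen, as the TAM receptor outside the members. For Axl, Megf10, Cd36 and Stab1 the 3 most alike genes were named. The members, lists and tests were chosen with earlier results of these data known, and the motifs after the promoters had been read. The same comparisons were run with DESeq2 1.42.0, with voom after quantile normalization in limma 3.58.1, with other scalings and filters, the 2 groups alone, a replicate block, library set as a covariate and each library left out. Replicate numbers come from the labels. After group means were removed, same-numbered libraries correlated by 0.278, 0.142 and 0.309 for N-AS and APP/PS1, which counted as pairing, but by -0.485, 0.441 and -0.00962 for APP/PS1 and WT and by -0.136, 0.348 and 0.24 for N-AS and WT, which did not. Reads carry no molecular identifiers, so their error exceeds that of counting.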

Additional observations from a re-analysis of the deposited data

How the results depend on the processing

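Depth limits Cd36 and Msr1 most, with 18 to 82 reads per library, and in APP/PS1 against WT the Xist level and the microglial marker level both differ with the group in every library, so they cannot be told apart in that comparison. In APP/PS1 against WT, 3 members were called (649 of all genes), and 0 to 3 when single libraries were left out (0 without WT replicate 1 or APP/PS1 replicate 4, 1 without WT replicate 2 or APP/PS1 replicate 3). DESeq2 called 4 members (1296 of all genes), and 5 passed an unadjusted p under 0.05 (3221 of all genes). With N-AS, 4 members passed the unadjusted threshold against APP/PS1 without N-AS (1653 of all genes) and 3 against WT (1261 of all genes). Against WT, DESeq2 called 1 member, Mertk (180 of all genes). A fit of library numbers 1 to 6 against WT, added after seeing the data, called 437 of all genes. It called 1 member, Megf10 (-0.77, adjusted p = 0.0406 by edgeR). Scaling by total counts alone lost the call of Megf10 (adjusted p = 0.0574) and the fit of only the 2 groups that of Pros1 (adjusted p = 0.0563).

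The replicate numbers were not shown to pair the libraries in any comparison. The replicate block left 0 members called in APP/PS1 against WT, with log2 fold changes of 1.20 for Axl (adjusted p = 0.0560), 0.87 for Pros1 (0.0956) and -1.03 for Megf10 (0.0595). It called 0 members in both comparisons with N-AS. It called 326 genes of all in APP/PS1 against WT, 0 in N-AS against APP/PS1 and 5 in N-AS against WT.

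Over all genes, 649 were called in APP/PS1 against WT, 1296 with DESeq2, 1055 with the library set as a covariate, 410 in a fit of the 2 groups, 3221 at an unadjusted p under 0.05 and 299 to 923 without single libraries. In N-AS against APP/PS1, 0 were called, 73 with DESeq2, 11 in library numbers 1 to 6, 1653 at an unadjusted p under 0.05 and 0 to 1 without single libraries. In N-AS against WT, 35 were called, 180 with DESeq2, 64 with the library set, 20 with voom, 2 in a fit of the 2 groups, 437 in library numbers 1 to 6, 1261 at an unadjusted p under 0.05 and 1 to 116 without single libraries.

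Signs of the following differences changed between settings. In APP/PS1 against WT, Msr1 was -0.029 with the library set and -0.72 in library numbers 1 to 6, and without single libraries ranged from -0.26 to 0.89, with Cd36 from -0.63 to 0.015. In N-AS against APP/PS1, Mertk was -0.027 with total counts, -0.014 with upper-quartile scaling and -0.011 with voom, Msr1 was 0.034 with the replicate block and 0.30 in library numbers 1 to 6, and Stab1 was -0.0027 with voom and -0.0067 with the block. Single libraries moved Mertk from -0.039 to 0.075, Mfge8 from -0.085 to 0.41, Msr1 from -0.37 to 0.013 and Stab1 from -0.045 to 0.15. In N-AS against WT, Mfge8 was -0.029 with the block, -0.028 with the library set and -0.41 in library numbers 1 to 6, Msr1 was 0.31 with voom and 0.090 with the block, and Scarb1 was 0.0012 without a filter. Single libraries moved Gas6 from -0.22 to 0.12, Mfge8 from -0.27 to 0.21, Msr1 from -0.44 to 0.70 and Scarb1 from -0.085 to 0.071. The cause of these changes was not tested.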
